A study of Mus musculus with 12 samples.

Results

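The genes described here are 10 genes of iron and heme handling, measured in 12 mouse livers: Slc40a1, Hamp, Tfrc, Tfr2, Steap4, Cp, Lcn2, Hp, Hpx and Hmox1. They were taken by name from the array's annotation, each was represented by 1 probe set with a single gene symbol, and together they are 10 of 19938 genes measured. The donors were male C57Bl6/J mice (background strain field C57Bl/6) in 3 groups of 4: untreated wild type (WT), WT with lipopolysaccharide (LPS, part of the bacterial outer membrane) at a dose of 1 µg/kg, and S534A with that dose of LPS. S534A is a germline knock-in that puts alanine in place of a serine of p65, a subunit of the transcription factor NF-kB. It was targeted in PTL1 embryonic stem cells, and carriers were backcrossed 5 times to C57Bl6/J and bred to homozygosity. The labels used here give neither the route of LPS nor the age, the time from dose to collection or its hour. There is no S534A group without LPS among the arrays analysed, so a genotype difference present before LPS and one that arose after it cannot be told apart.

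Systemic iron is set by a peptide hormone of hepatocytes, hepcidin (Hamp), which binds the iron exporter ferroportin (Slc40a1) and causes its degradation, so that iron stays inside macrophages and hepatocytes. Hepcidin transcription is driven by iron through bone morphogenetic protein (BMP) receptors and SMAD factors, and by interleukin-6 through STAT3. In infection the liver withholds iron from microbes by several routes: lipocalin 2 (Lcn2) captures bacterial siderophores, haptoglobin (Hp) and hemopexin (Hpx) bind free haemoglobin and heme in plasma, and heme oxygenase 1 (Hmox1) breaks heme down.

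RefSeq promoters (GRCm38.p6, from 250 bases before each transcription start up to the start) were at hand for 7 of the 10 genes. Those of Slc40a1, Hp and Hmox1 were not used here. The set printed shows hepcidin and its neighbouring paralogue Hamp2, whose values did not rise after LPS, beside Steap4 and Lcn2, which rose most. Each is written 5′ to 3′ on the gene's own strand. Capitals mark matches to the STAT motif TTCNNNGAA in Hamp, Hamp2 and Steap4, to the BMP response motif GGCGCC in Hamp, and to the C/EBP motif TTGCNNAA in Steap4 and Lcn2.
Hamp: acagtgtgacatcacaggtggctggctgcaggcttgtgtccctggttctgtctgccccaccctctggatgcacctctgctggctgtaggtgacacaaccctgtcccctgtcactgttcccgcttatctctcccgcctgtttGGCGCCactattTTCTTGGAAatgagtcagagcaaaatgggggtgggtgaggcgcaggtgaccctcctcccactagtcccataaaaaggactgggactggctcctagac
Hamp2: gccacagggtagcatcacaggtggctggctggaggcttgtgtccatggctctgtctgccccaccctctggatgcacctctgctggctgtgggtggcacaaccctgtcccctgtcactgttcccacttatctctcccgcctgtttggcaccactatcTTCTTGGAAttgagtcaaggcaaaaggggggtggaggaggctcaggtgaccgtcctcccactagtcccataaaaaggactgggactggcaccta
Steap4: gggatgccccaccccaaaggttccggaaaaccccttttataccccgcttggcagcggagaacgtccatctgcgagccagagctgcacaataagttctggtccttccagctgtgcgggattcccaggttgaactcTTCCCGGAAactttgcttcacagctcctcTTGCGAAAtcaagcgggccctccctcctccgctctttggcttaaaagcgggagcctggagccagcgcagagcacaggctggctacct
Lcn2: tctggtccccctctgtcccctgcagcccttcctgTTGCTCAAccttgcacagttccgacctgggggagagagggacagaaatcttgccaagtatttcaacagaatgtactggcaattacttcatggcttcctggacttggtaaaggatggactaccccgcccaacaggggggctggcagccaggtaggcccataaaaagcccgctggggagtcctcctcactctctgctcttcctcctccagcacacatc

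The Hamp window covers chr7:30944030-30944279 and that of Hamp2 chr7:30924182-30924431, both on the minus strand. The Steap4 window covers chr5:7960222-7960471 on the plus strand and the Lcn2 window chr2:32387740-32387989 on the minus strand. The windows of Hamp and Hamp2 were 89.7% identical when aligned. The same STAT match, TTCTTGGAA, began at -97 from the Hamp start and at -94 from that of Hamp2. GGCGCC was found at -109 in the Hamp window and not in that of Hamp2. In Steap4 the STAT match TTCCCGGAA began at -116 and the C/EBP match TTGCGAAA at -87. The 7 genes had 11 windows, some genes having several starts. Searched on both strands, the STAT motif was in 2 of the 11 windows (Hamp, Steap4), against 7.02% of all 32851 windows. The BMP motif was in 2 (Hamp, Tfrc; 9.59% of all windows) and the C/EBP motif in 4 (Lcn2, Hpx, Cp, Steap4; 9.56%). An NF-kB motif with 1 open base was in 1, as GGGACTTTCC at -147 from a Tfr2 start (0.356% of all windows). No match overlapped another. A match is a run of letters and was not tested as a binding site.

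Over the 12 arrays log2 values ran from 3.43 to 14.48, and the array medians lay between 6.15 and 6.32. A list of 8 hepatocyte markers averaged 13.44 to 13.58 on the 12 arrays, as the tissue label says. The mean of 15 exocrine pancreas markers lay between 5.67 and 6.17 on 9 arrays, but at 8.22 and 6.57 on WT LPS replicates 2 and 3 and at 9.14 on S534A LPS replicate 3. Results are also given without those 3 arrays where it mattered. The labels do not state that each liver is from a separate animal. The p-values then reflect only how these 12 samples scatter, and their number limits the precision. If the untreated arrays, titled by another scheme, were run apart, batch and LPS cannot be told apart.

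**Figure D1:**
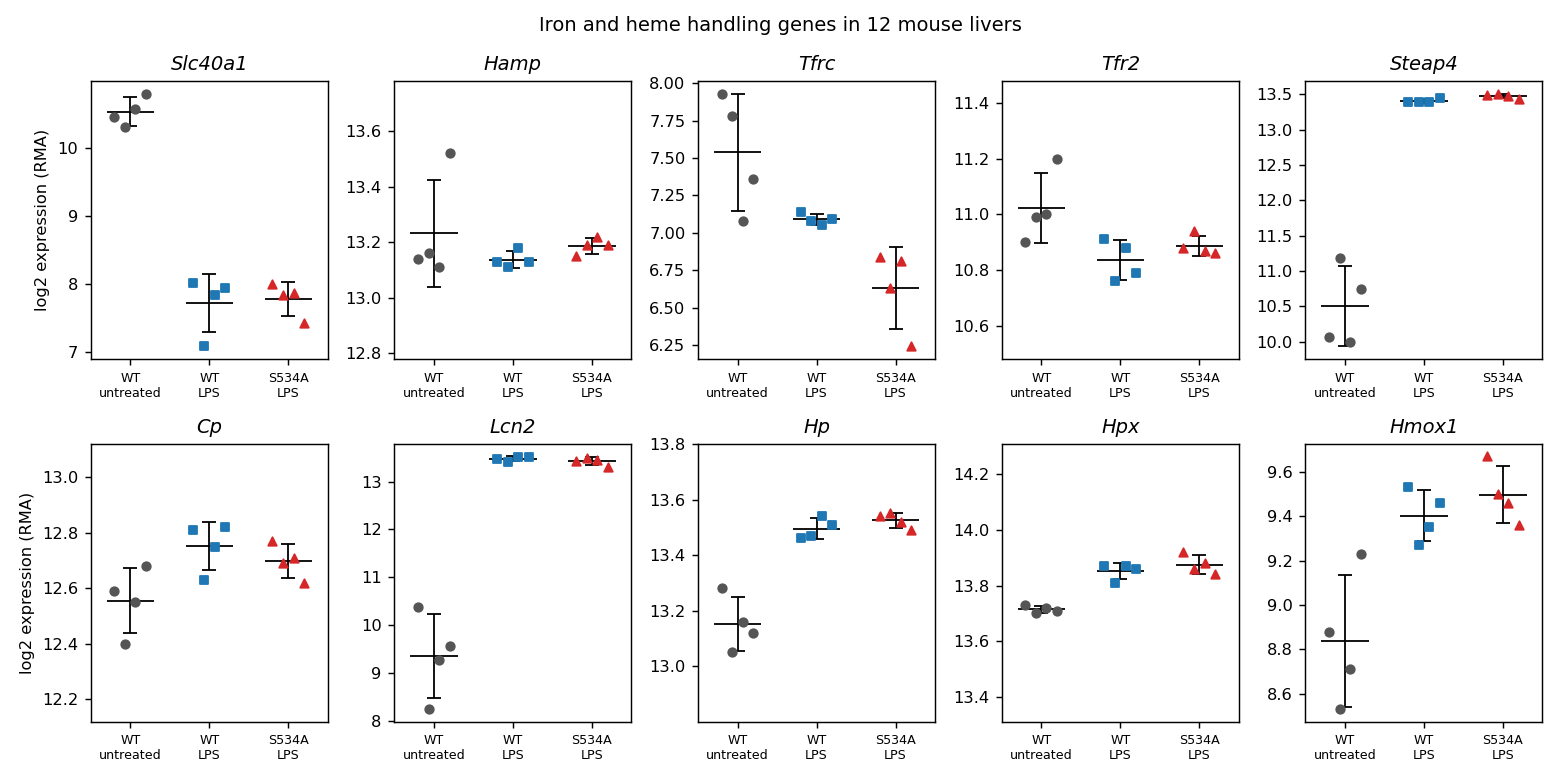
Log2 expression (RMA values, vertical axis, scaled for each gene) of the 10 iron and heme genes in untreated WT (circles), WT LPS (squares) and S534A LPS (triangles) livers; each point is 1 liver, horizontal lines are means and bars the SD of 4. Slc40a1 lies lower and Steap4, Lcn2, Hp, Hpx and Hmox1 lie higher on all LPS arrays than on all untreated arrays, while the groups overlap for Hamp.

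The first question was what LPS changed in WT livers. Of the 10 genes 5 rose (Lcn2, Steap4, Hmox1, Hp and Hpx) and 1 fell (Slc40a1), whereas hepcidin itself differed by -0.09 on the log2 scale (limma, Benjamini-Hochberg adjusted p under 0.05, n = 4 per group). Over all genes 9.34% were called higher and 15.6% lower, 25.0% in all. An unadjusted p under 0.05 was found for 9 of the 10 genes and for 35.5% of all genes. The median log2 difference of the 10 genes was 0.17, against 0.02 over all genes. The same 6 genes were those whose WT LPS arrays did not overlap the untreated ones, as 9.78% of all genes did upwards and 14.9% downwards.

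Ferroportin, the only known iron exporter of mammalian cells, showed the one fall. Slc40a1 (probe set 10354374) read 10.46, 10.31, 10.58 and 10.80 in untreated livers, 8.02, 7.08, 7.84 and 7.94 in WT LPS livers, and 8.00, 7.83, 7.87 and 7.42 in S534A LPS livers. All 8 LPS arrays lay more than 2 log2 units below every untreated array, and WT LPS replicate 2 was the lowest of the 12. The group means were 10.54 ± 0.21 (SD, n = 4), 7.72 ± 0.43 and 7.78 ± 0.25. The fall in WT livers was 7.05-fold (log2 difference -2.82 ± 0.19, SE; limma adjusted p = 2.92e-07). Ferroportin is carried by Kupffer cells, the liver's macrophages, as well as by hepatocytes. The mean of 12 Kupffer cell markers ran from 8.91 to 9.36 in untreated, 8.42 to 9.02 in WT LPS and 8.71 to 8.90 in S534A LPS livers. It was lowest on WT LPS replicate 2, an array that also carried pancreas transcripts. Of these 12 markers 1 rose and 5 fell in WT livers, against 9.34% and 15.6% of all genes. In whole liver, fewer cells of a type and less RNA per cell cannot be told apart, and the part of Kupffer cells in the fall of Slc40a1 was not tested.

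Among all other genes the nearest to Slc40a1 in pattern over the 12 arrays were Hsd3b2 (root mean square difference 0.28 log2 units after centring each gene on its mean), Fam13a (0.33) and Nrep (0.35). Hsd3b2, a steroid dehydrogenase gene, averaged 9.92 in untreated, 7.42 in WT LPS and 7.20 in S534A LPS livers.

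Hepcidin stayed near its untreated level. Hamp (probe set 10562169) read 13.14, 13.16, 13.11 and 13.52 in untreated livers, 13.13, 13.11, 13.18 and 13.13 in WT LPS livers, and 13.15, 13.19, 13.22 and 13.19 in S534A LPS livers. The 3 groups overlapped, and the single value that stood apart was the high one of untreated replicate 4. The WT difference was -0.09 ± 0.08 (95% interval -0.27 to 0.08; limma adjusted p = 0.445). Without untreated replicate 4 the difference was 0.00 (adjusted p = 0.982). Hamp was among the brightest probe sets of every array (99.4th to 99.8th percentile), and how far the array still resolves differences at that brightness was not tested.

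The most similar pattern to Hamp was that of Aldh9a1, an aldehyde dehydrogenase gene (root mean square difference 0.05), followed by Tespa1 and Snord61 (both 0.05). Aldh9a1 averaged 12.07, 11.93 and 11.96 in the 3 groups, so the likeness is that of genes with little movement. Hamp2, the paralogue whose promoter is printed above, read 8.50, 8.35, 8.83 and 8.33 in untreated and 8.19, 8.23, 8.19 and 8.23 in WT LPS livers. No WT LPS array reached the lowest untreated one, and the fall of 0.29 passed narrowly (log2 difference -0.29 ± 0.10; limma adjusted p = 0.0393). It did not pass without the 3 arrays with pancreas transcripts (-0.29; adjusted p = 0.176), and passed under 9 of 25 alternative settings, over which it ranged from -0.46 to -0.13. Hamp and Hamp2 are near-identical neighbours, and signal shared between their probes was not separated.

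The transferrin receptors, which take up (Tfrc) or sense (Tfr2) transferrin-bound iron, read lower after LPS to different degrees. Tfrc (probe set 10435075) read 7.93, 7.78, 7.08 and 7.36 in untreated livers, 7.14, 7.08, 7.05 and 7.09 in WT LPS livers, and 6.84, 6.63, 6.81 and 6.24 in S534A LPS livers. Untreated replicate 3 lay within the WT LPS range, and all S534A LPS arrays lay below all others. In WT livers the difference was -0.45 ± 0.17 and did not pass (95% interval -0.82 to -0.08; limma adjusted p = 0.0746). It passed in 2 of 25 alternative settings, one of them without untreated replicate 3 (-0.60; adjusted p = 0.013). Tfrc is abundant on red cell precursors and dividing cells. The mean of the 4 measured erythroid markers lay between 5.72 and 6.03 on all 12 arrays, and that of 7 markers of cycling cells between 5.74 and 6.22. Neither erythroid nor cycling markers were called in any of the 3 comparisons.

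Tfr2, the receptor with which hepatocytes read transferrin saturation on the way to hepcidin, differed less. Tfr2 (probe set 10526630) read 10.90, 10.99, 11.00 and 11.20 in untreated livers, 10.91, 10.76, 10.88 and 10.79 in WT LPS livers, and 10.88, 10.94, 10.87 and 10.86 in S534A LPS livers. Untreated replicate 1 overlapped both LPS groups. The WT difference of -0.18 ± 0.07 did not pass (95% interval -0.33 to -0.04; limma adjusted p = 0.0677). It passed in 3 of 25 alternative settings, one of them without untreated replicate 1 (-0.23; adjusted p = 0.0362).

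The metalloreductase gene Steap4, whose protein reduces ferric iron and copper, was among the genes that rose most. Steap4 (probe set 10519497) read 10.07, 11.18, 10.00 and 10.75 in untreated livers, 13.39, 13.39, 13.39 and 13.45 in WT LPS livers, and 13.49, 13.51, 13.47 and 13.44 in S534A LPS livers. The untreated livers spanned 2.26-fold and the LPS groups 1.05-fold each. The rise in WT livers was 7.50-fold (log2 difference 2.91 ± 0.20; limma adjusted p = 3.19e-07). Ceruloplasmin, the plasma ferroxidase that loads iron onto transferrin, moved little. Cp (probe set 10490989) read 12.59, 12.40, 12.55 and 12.68 in untreated livers, 12.81, 12.63, 12.75 and 12.82 in WT LPS livers, and 12.77, 12.69, 12.71 and 12.62 in S534A LPS livers. The groups overlapped through untreated replicate 4 and WT LPS replicate 2, and the WT difference of 0.20 ± 0.07 missed the threshold (95% interval 0.05 to 0.35; limma adjusted p = 0.0573). It passed in 5 of 25 alternative settings, among them without either of those arrays (0.24 in each case; adjusted p = 0.0305 and 0.0256).

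Lipocalin 2 had the largest difference of the 10 genes. Lcn2 (probe set 10481627) read 10.38, 8.25, 9.27 and 9.56 in untreated livers, 13.48, 13.40, 13.51 and 13.51 in WT LPS livers, and 13.42, 13.50, 13.46 and 13.31 in S534A LPS livers. Untreated livers differed among themselves by 4.37-fold, whereas the WT LPS livers lay within 1.08-fold of each other. On the LPS arrays Lcn2 lay at the 99.7th percentile or above, as did Steap4, and compression of spread and fold at that brightness was not tested. The rise in WT livers was 17.3-fold (log2 difference 4.11 ± 0.31; limma adjusted p = 7.8e-07). Lcn2 is made by hepatocytes and is stored in neutrophil granules. The mean of 12 neutrophil markers was 5.56 to 5.73 in untreated, 6.64 to 6.87 in WT LPS and 6.96 to 7.23 in S534A LPS livers. Of these markers 10 rose in WT livers, against 9.34% of all genes. In S534A LPS livers 2 were higher than in WT LPS livers, against 0.166% of all genes. The part of neutrophils in the rise of Lcn2 was not tested. The nearest patterns over the 12 arrays were those of the nucleic acid sensor Zbp1 (root mean square difference 0.37), the acute phase gene Saa2 (0.41) and the interferon-induced Oasl1 (0.41).

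The plasma scavengers rose by small steps from a high level. Hp (probe set 10581605) read 13.28, 13.05, 13.16 and 13.12 in untreated livers, 13.46, 13.47, 13.54 and 13.51 in WT LPS livers, and 13.54, 13.55, 13.52 and 13.49 in S534A LPS livers. Untreated and LPS arrays did not overlap, and the rise in WT livers was 1.27-fold (log2 difference 0.34 ± 0.06; limma adjusted p = 0.000784). Hpx (probe set 10566477) read 13.73, 13.70, 13.72 and 13.71 in untreated livers, 13.87, 13.81, 13.87 and 13.86 in WT LPS livers, and 13.92, 13.86, 13.88 and 13.84 in S534A LPS livers. Again there was no overlap, and the rise was 1.10-fold (0.14 ± 0.05; limma adjusted p = 0.0474). The Hpx call was lost in 19 of 25 alternative settings, among them the fit without any single array other than WT LPS replicate 2 (adjusted p 0.0582 to 0.103), whereas its difference stayed between 0.11 and 0.16. Hp lay at the 99.4th to 99.8th percentile of its arrays and Hpx at the 99.9th or above, and compression at that brightness was not tested.

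Heme oxygenase 1, which splits heme into iron, biliverdin and carbon monoxide, rose moderately. Hmox1 (probe set 10572897) read 8.88, 8.53, 8.71 and 9.23 in untreated livers, 9.53, 9.27, 9.35 and 9.46 in WT LPS livers, and 9.67, 9.50, 9.46 and 9.36 in S534A LPS livers. The highest untreated liver, replicate 4, lay just below the lowest LPS liver. The rise in WT livers was 1.48-fold (log2 difference 0.57 ± 0.13; limma adjusted p = 0.00558), and it passed in all 25 alternative settings (0.47 to 0.70).

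**Figure D2:**
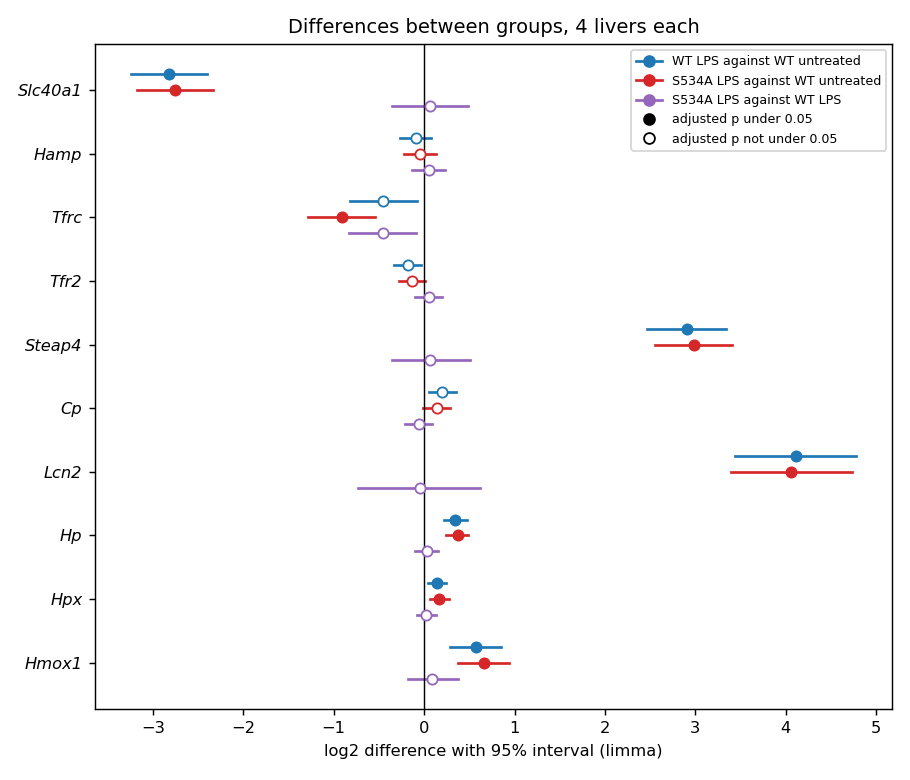
Log2 differences (horizontal axis) with limma's 95% intervals for the 10 genes in 3 comparisons of 4 livers each; filled points have an adjusted p under 0.05. Differences of WT LPS and of S534A LPS livers from the same untreated WT livers are drawn next to each other for each gene. The latter differ in both genotype and LPS. All 10 differences between S534A LPS and WT LPS livers are open points.

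The next comparison set S534A against WT livers, both after LPS. None of the 10 genes passed between S534A LPS and WT LPS livers (limma), where 0.171% of all genes were called (0.166% higher, 0.00502% lower). At an unadjusted p under 0.05 the count was 1 of 10 (Tfrc), against 5.76% of all genes. None of the 10 lay wholly above the WT LPS arrays, as 3.25% of all genes did. The median difference of the 10 genes was 0.04, against 0.01 over all genes.

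For Hpx the difference was 0.02 (95% interval -0.08 to 0.13), for Hp 0.03 (-0.10 to 0.15), for Hamp 0.05 (-0.13 to 0.23), for Tfr2 0.05 (-0.10 to 0.20) and for Cp -0.06 (-0.21 to 0.09). For Hmox1 it was 0.09 (-0.18 to 0.37). The intervals were wider for Slc40a1 (0.06; -0.36 to 0.48), Steap4 (0.07; -0.36 to 0.51) and Lcn2 (-0.05; -0.73 to 0.62); limma's spread pools all 3 groups. For Slc40a1 the sign turned without WT LPS replicate 2 (-0.15; adjusted p = 0.807) and without the 3 arrays with pancreas transcripts (-0.23; adjusted p = 0.916).

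Tfrc was the one gene whose S534A LPS arrays (6.24 to 6.84) lay wholly below the WT LPS arrays (7.05 to 7.14), as did 1.18% of all genes. The difference was 1.38-fold (log2 difference -0.46 ± 0.17; 95% interval -0.83 to -0.09) and did not pass over all genes (unadjusted p = 0.0184; limma adjusted p = 0.601). It lay between -0.55 and -0.33 in the 25 alternative settings, with an adjusted p from 0.171 to 1.

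S534A LPS livers were also set against untreated WT livers, a contrast that shares its controls with the first and differs in both genotype and LPS. Of the 10 genes 5 were higher and 2 lower (limma adjusted p under 0.05), with 11.0% of all genes called higher and 16.0% lower, 26.9% in all. The same 7 had an unadjusted p under 0.05 (36.4% of all genes), and their groups did not overlap, as for 13.8% of all genes upwards and 17.5% downwards. The 7 genes were the 6 called in WT livers and Tfrc, which was 1.88-fold lower (log2 difference -0.91 ± 0.17; limma adjusted p = 0.00134). Lcn2 was 16.6-fold (4.06 ± 0.31), Steap4 7.89-fold (2.98 ± 0.20), Hmox1 1.58-fold (0.66 ± 0.13) and Hp 1.29-fold higher (0.37 ± 0.06), and Slc40a1 6.76-fold lower (-2.76 ± 0.19). Hpx differed by 0.16 ± 0.05 (adjusted p = 0.0221), and lost its call in 9 of 25 alternative settings, among them without untreated replicate 2 (adjusted p = 0.0539), S534A LPS replicate 1 (0.067) or S534A LPS replicate 3 (0.053). Hamp read -0.05 ± 0.08 (adjusted p = 0.73), Cp 0.14 ± 0.07 (0.173) and Tfr2 -0.13 ± 0.07 (0.179).

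Around these 10 genes, 72 of 75 listed genes of iron and heme handling were measured. In WT livers after LPS 15 rose and 21 fell, against 9.34% and 15.6% of all genes. Between S534A LPS and WT LPS livers none was called (limma), against 0.171% of all genes. There 9 of the 72 had an unadjusted p under 0.05, against 5.76% of all genes. With array weights 5 of the 72 passed, and 2.39% of all genes did. Against untreated WT livers, S534A LPS livers had 19 higher and 22 lower (over all genes 11.0% and 16.0%). Without the 3 arrays with pancreas transcripts the WT counts were 13 and 9, while the share called over all genes fell from 25.0% to 16.2%.

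**Figure D3:**
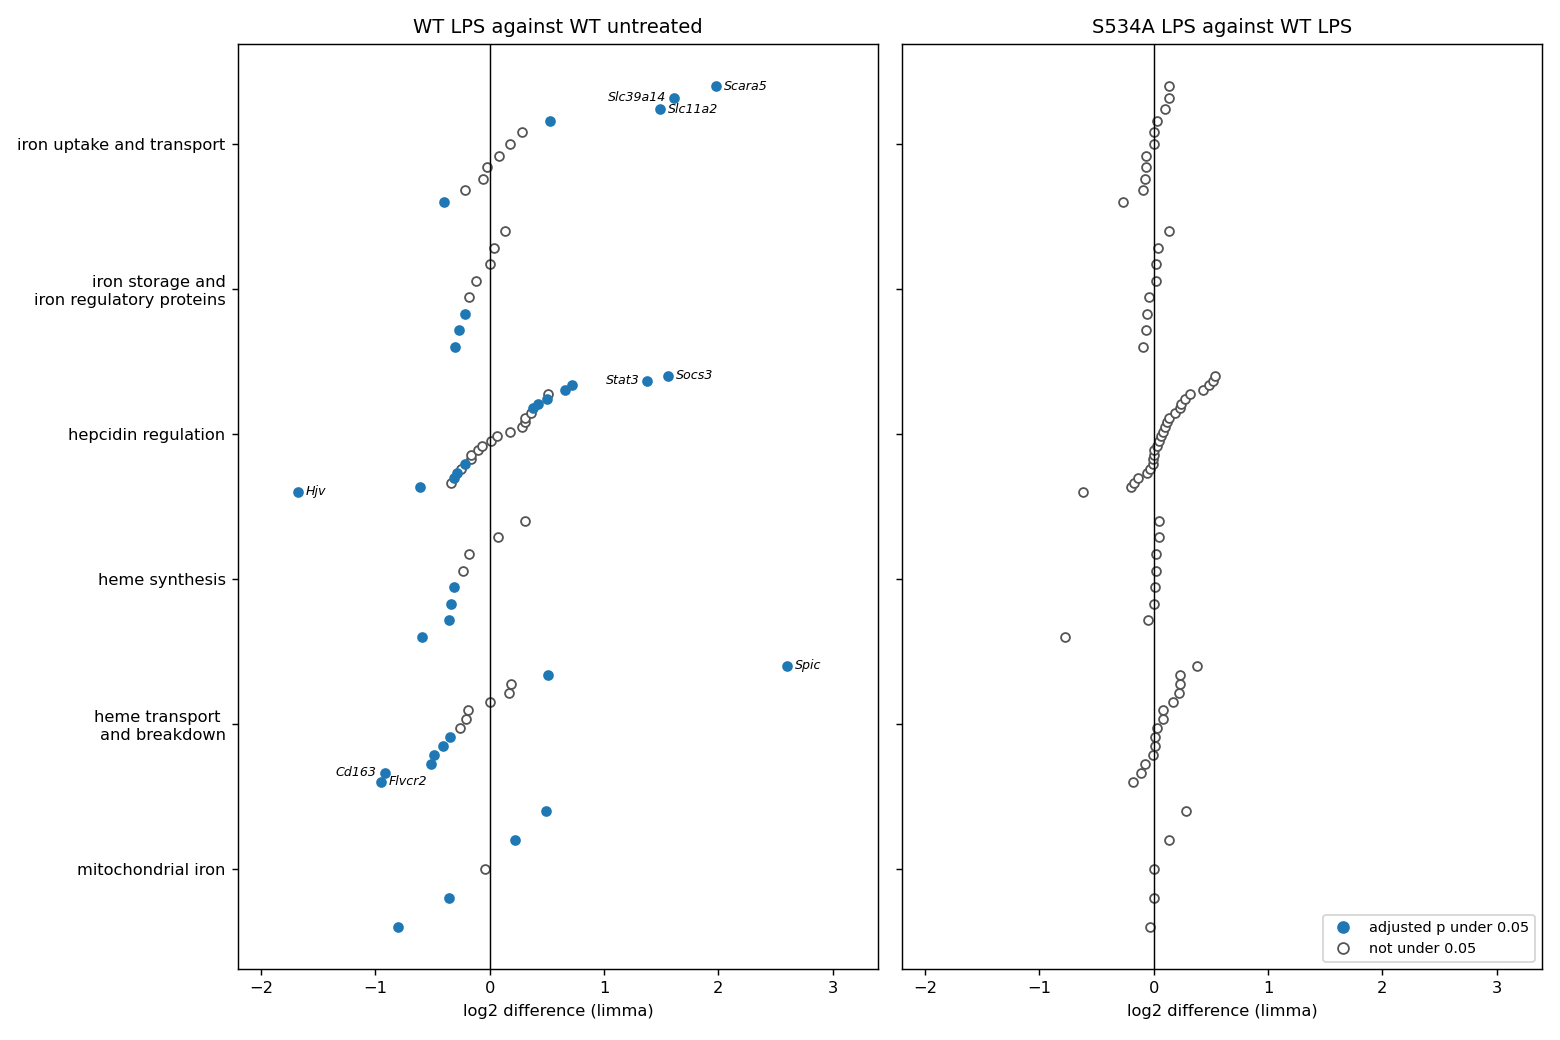
Log2 differences (horizontal axis) of the 72 other iron and heme genes, grouped in 6 lists, for WT LPS against WT untreated (left) and S534A LPS against WT LPS (right); each point is 1 gene, filled where its adjusted p is under 0.05, and genes that differ by at least 0.9 are named. Spic, Scara5, Slc39a14, Socs3, Slc11a2 and Stat3 lie farthest to the right and Hjv farthest to the left after LPS, and no point is filled between the genotypes.

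Genes of metal import changed in both directions. Of 11 genes of iron uptake and transport 4 rose and 1 fell, against 9.34% and 15.6% of all genes. Their median was 0.18, against 0.02 over all genes. Scara5, a ferritin receptor, rose 3.93-fold (log2 difference 1.98 ± 0.15; limma adjusted p = 6.88e-07), Slc39a14, the importer ZIP14 for zinc and free iron, 3.05-fold (1.61 ± 0.17), and Slc11a2, the divalent metal importer DMT1, 2.81-fold (1.49 ± 0.08). Steap1, a relative of Steap4, also rose (0.53 ± 0.09), from a dim probe set that read 4.87 to 5.00 in untreated and 5.26 to 5.62 in WT LPS livers. The gene that fell was Slc39a8, the metal importer ZIP8 (-0.40 ± 0.10, limma adjusted p = 0.00744), named after its value was seen. Without the 3 arrays with pancreas transcripts it differed by -0.35 and did not pass (adjusted p = 0.0746). Transferrin (Trf) read 13.78 ± 0.02 before and 13.76 ± 0.03 after LPS (SD, n = 4) and did not pass (limma adjusted p = 0.791). The same 4 rises passed without the 3 arrays with pancreas transcripts.

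Storage genes gave smaller differences. Of 8 genes of iron storage and iron regulatory proteins none rose and 3 fell, against 9.34% and 15.6% of all genes. Their median was -0.15, against 0.02 over all genes. The ferritin light chain gene Ftl1 fell by 0.30 ± 0.05 on the log2 scale (limma adjusted p = 0.000892), Aco1, the iron regulatory protein IRP1, by 0.22 ± 0.06, and the iron chaperone gene Pcbp2 by 0.27 ± 0.08. Without the 3 arrays with pancreas transcripts Ftl1 alone passed, while Aco1 differed by -0.19 and Pcbp2 by -0.26. With only untreated replicates 1 and 3 kept, Pcbp2 differed by -0.12 (adjusted p = 0.335) and Aco1 by -0.18 (0.089). The ferritin heavy chain gene Fth1 read 13.44 ± 0.02 before and 13.43 ± 0.05 after LPS (SD, n = 4), and Pcbp1 differed by 0.13 ± 0.05 (adjusted p = 0.091).

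Among genes of hepcidin regulation, Stat3 and Il6st of the interleukin-6 arm rose, whereas Il6 and the receptor gene Il6ra did not pass. Genes of the BMP arm changed both ways. Of 26 genes 7 rose and 5 fell, against 9.34% and 15.6% of all genes. Their median was 0.12, against 0.02 over all genes. Stat3 read 10.54 to 10.72 in untreated and 11.97 to 12.08 in WT LPS livers, a 2.61-fold rise (log2 difference 1.38 ± 0.06; limma adjusted p = 2.23e-09). Il6st, which encodes the shared receptor subunit gp130, rose by 0.50 ± 0.06. Il6ra, named after its value was seen, differed by 0.51 ± 0.25 (limma adjusted p = 0.172). It passed in 2 of 25 alternative settings, over which it ranged from -0.05 to 1.07. Hjv, the BMP co-receptor hemojuvelin, read 11.29, 10.77, 11.32 and 10.85 in untreated and 9.69, 9.09, 9.38 and 9.33 in WT LPS livers. It fell 3.21-fold (-1.68 ± 0.17; adjusted p = 1.01e-05), while the BMP receptor gene Bmpr1a rose 1.58-fold (0.66 ± 0.10; adjusted p = 0.000252). The ligand gene Bmp6 differed by 0.06 ± 0.14 (adjusted p = 0.786) and Il6, a dim probe set at 4.57 to 4.64 in untreated livers, by 0.31 ± 0.15 (adjusted p = 0.167). All WT LPS arrays of Il6 (4.81 to 5.14) nonetheless lay above the untreated ones, as for 9.78% of all genes. S534A LPS livers read higher in Il6 than untreated WT livers (0.85 ± 0.15, limma adjusted p = 0.000917), where 11.0% of all genes were called higher. With only untreated replicates 1 and 3 kept, Bmp6 differed by 0.35 (limma adjusted p = 0.0425). Over the 25 alternative settings it ranged from -0.23 to 0.35. Without the 3 arrays with pancreas transcripts 6 genes rose and 1, Hjv, fell.

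**Figure D4:**
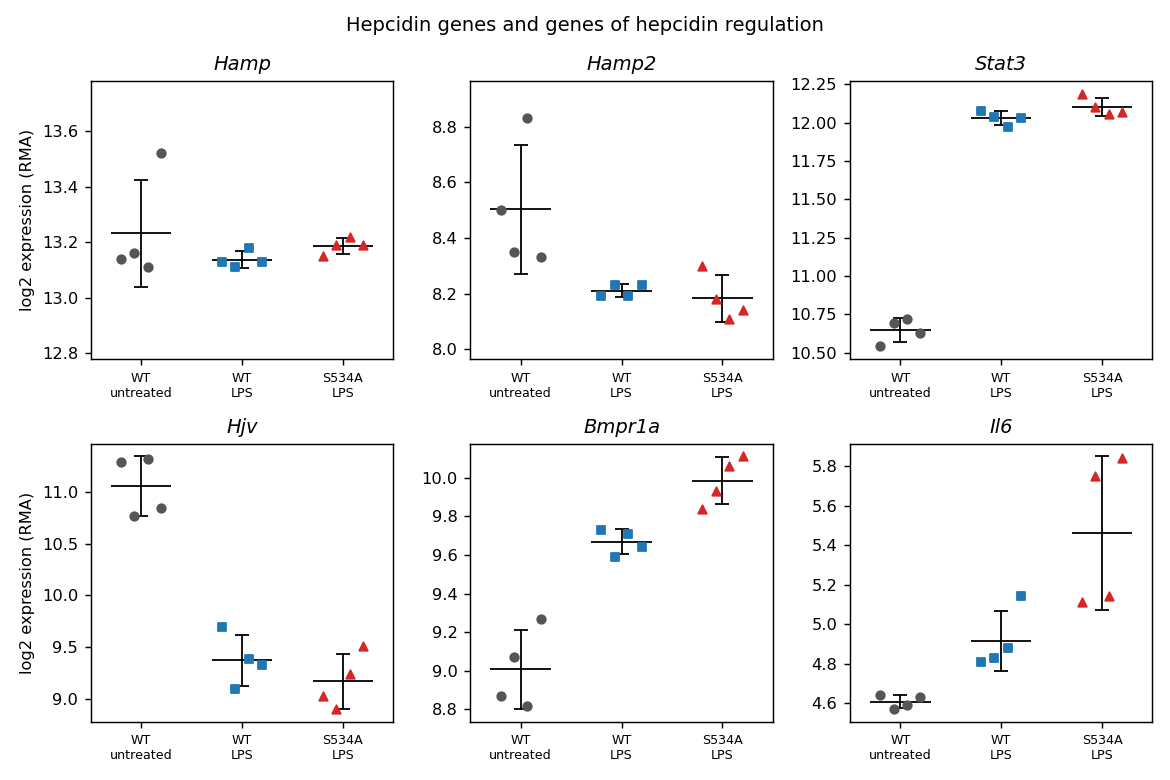
Log2 expression (RMA values, vertical axis, scaled for each gene) of Hamp, Hamp2 and 4 genes of hepcidin regulation in untreated WT (circles), WT LPS (squares) and S534A LPS (triangles) livers; lines are means and bars the SD of 4 livers. Stat3, Bmpr1a and Il6 lie higher and Hjv and Hamp2 lower on all LPS arrays than on all untreated arrays, while the Hamp groups overlap.

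Some enzymes of heme synthesis fell. Of 8 genes none rose and 4 fell, against 9.34% and 15.6% of all genes. Their median was -0.27, against 0.02 over all genes. Cpox fell by 0.59 ± 0.13, Ppox by 0.36 ± 0.11, Alad by 0.34 ± 0.08 and Urod by 0.31 ± 0.06 on the log2 scale (limma adjusted p = 0.00394, 0.0251, 0.0077 and 0.00331). Without the 3 arrays with pancreas transcripts Urod alone passed (adjusted p = 0.0371). The differences of Cpox, Ppox and Alad were then -0.53, -0.27 and -0.33. With only untreated replicates 1 and 3 kept, Alad differed by -0.27 and did not pass (adjusted p = 0.0812). Alas1, the first and rate-limiting enzyme in liver, read 11.48 to 12.67 in untreated, 12.16 to 12.63 in WT LPS and 11.13 to 12.08 in S534A LPS livers. The S534A LPS arrays lay below the WT LPS arrays, but the difference did not pass (-0.78 ± 0.25; limma adjusted p = 0.442).

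Genes of heme transport and breakdown moved apart. Of 14 genes 2 rose and 6 fell, against 9.34% and 15.6% of all genes. Their median was -0.24, against 0.02 over all genes. Spic, a transcription factor of iron-recycling macrophages, read 5.57 to 6.23 in untreated and 7.89 to 8.82 in WT LPS livers, a 6.06-fold rise (2.60 ± 0.18; limma adjusted p = 2.88e-07). Flvcr1, a heme exporter, rose by 0.51 ± 0.08, whereas its relative Flvcr2 fell by 0.95 ± 0.13, the heme transporter gene Slc48a1 by 0.51 ± 0.08, and Cd163, the haptoglobin-haemoglobin receptor of macrophages, by 0.92 ± 0.18. Cd163 is also one of the 12 Kupffer cell markers. Its fall passed in all 25 alternative settings but shrank to -0.59 with only untreated replicates 1 and 3 kept, while the rise of Flvcr1 ranged from 0.33 to 0.58.

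Among 5 genes of mitochondrial iron 2 rose and 2 fell, against 9.34% and 15.6% of all genes. Their median was -0.04, against 0.02 over all genes. Slc25a28 (mitoferrin 2) rose by 0.49 ± 0.09 and Iscu, an iron-sulphur scaffold, by 0.22 ± 0.07, while Slc25a37 (mitoferrin 1) fell by 0.80 ± 0.17 and Glrx5, which also serves iron-sulphur assembly, by 0.36 ± 0.09 (limma adjusted p = 0.00185, 0.0291, 0.00354 and 0.00751). Iscu and Glrx5 did not pass without the 3 arrays with pancreas transcripts (adjusted p = 0.14 and 0.0814), where they differed by 0.22 and -0.32. With only untreated replicates 1 and 3 kept, the difference of Slc25a37 was -0.43 (adjusted p = 0.00741), that of Iscu 0.13 (0.202) and that of Glrx5 -0.27 (0.059).

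Between the genotypes the 2 genes of each list with the smallest p did not pass either. Neo1, a hemojuvelin-binding receptor, read 8.55 ± 0.27 in S534A LPS against 8.07 ± 0.24 in WT LPS livers (SD, n = 4; log2 difference 0.48 ± 0.13; limma adjusted p = 0.291) and Il6 5.46 ± 0.39 against 4.92 ± 0.16 (0.54 ± 0.15; 0.291). Slc25a28 differed by 0.28 ± 0.09 (0.484), Slc25a37 by 0.13 ± 0.17 (1), Spic by 0.38 ± 0.18 (0.892) and Slc48a1 by 0.17 ± 0.08 (0.899). Scara5 differed by -0.27 ± 0.15 (0.997) and Steap1 by 0.13 ± 0.09, Urod by 0.05 ± 0.06, Aco1 by -0.07 ± 0.06 and Ncoa4, the ferritin autophagy receptor, by -0.09 ± 0.08 (adjusted p = 1 each).

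Of the 10 genes 8 varied most among the untreated livers (SD), the exceptions being Slc40a1 and Hpx. A mean over 12 clock genes was 8.34 and 8.02 in untreated replicates 1 and 3 but 9.40 and 9.46 in replicates 2 and 4, against 8.36 to 8.72 on the 8 LPS arrays. The mice were kept on a 12-hour light-dark cycle. Steap4 was likewise higher in replicates 2 and 4 (11.18 and 10.75) than in 1 and 3 (10.07 and 10.00), and so was Slc39a14 (11.05 and 11.00 against 10.05 and 10.43) and Slc25a37 (9.53 and 9.32 against 8.70 and 8.67). Lcn2, Tfrc and Hamp followed other orders. With only replicates 1 and 3 kept, the rise of Steap4 in WT livers was 3.37 ± 0.06 and that of Lcn2 3.65 ± 0.22, and with only 2 and 4 kept they were 2.44 ± 0.10 and 4.57 ± 0.25. For Slc40a1 the same fits gave -2.80 ± 0.23 and -2.83 ± 0.25. With 2 and 4 kept, Tfrc (-0.48; limma adjusted p = 0.0467) and Tfr2 (-0.26; 0.0343) passed. The part of the clock in these values was not tested.

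**Figure D5:**
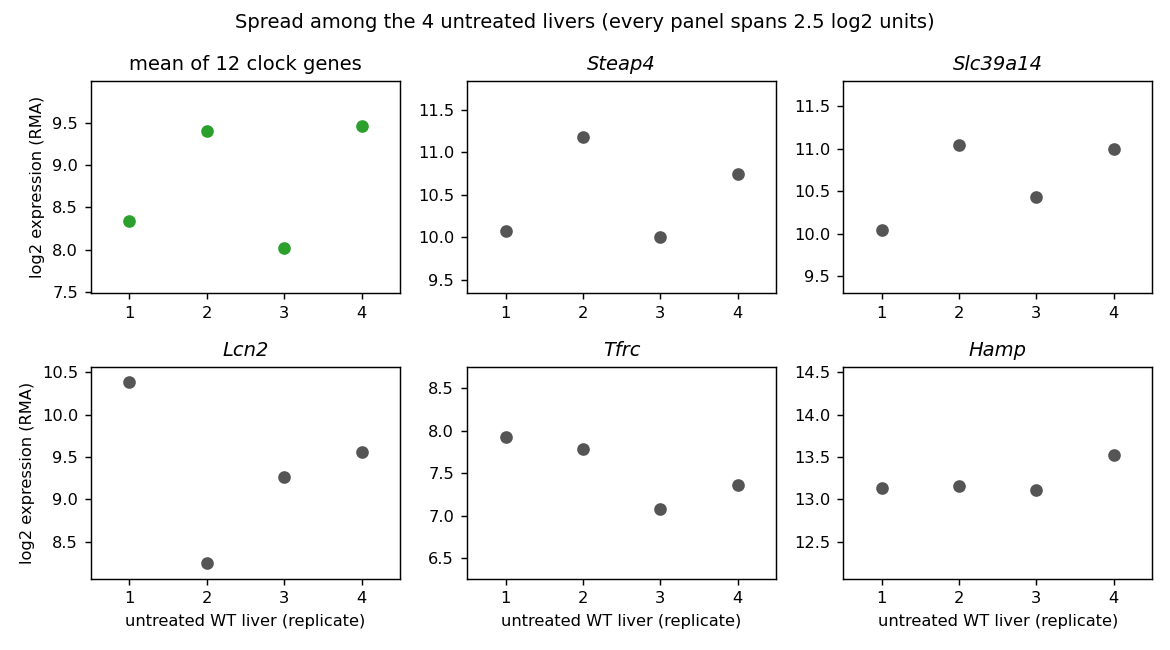
Log2 expression (RMA values, vertical axis, every panel spanning 2.5 units) of the mean of 12 clock genes and of Steap4, Slc39a14, Lcn2, Tfrc and Hamp in each of the 4 untreated WT livers (horizontal axis, replicate number). The clock mean, Steap4 and Slc39a14 are high in replicates 2 and 4, whereas Lcn2 is highest in replicate 1 and Hamp in replicate 4.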

How the data were processed

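RNA of 12 livers was measured on Affymetrix GeneChip arrays, 1 per liver. The deposited values are log2 expression made with RMA (background correction, quantile normalisation, probe set summary), per the submitters' processing notes; no version was named. They were used as deposited. Of 35556 probe sets 21789 had 1 gene symbol, 1621 several and 12146 none; the first kind gave 19938 genes, the brightest probe set standing for a gene with several. Symbols were updated through Entrez identifiers (21698 probe sets found in the RefSeq table of GRCm38.p6). The 3 comparisons used limma 3.58.1 under R 4.3.3 (lmFit, eBayes; 9 residual and 3.54 prior degrees of freedom) on all 12 arrays without a dim filter, two-sided, with Benjamini-Hochberg adjustment over all genes and a threshold of 0.05. The procedure was tested on simulated data. Errors are limma's SE or the SD of 4 arrays.

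The 10 genes, the 6 lists of 75 other iron and heme genes (3 matched through a synonym) and the 8 marker lists were chosen with earlier results of these data known, and the motifs after the sequences were seen. Named list genes are the 4 with the smallest p after LPS and the 2 between genotypes in each list. Added to these were Hamp2, Trf, Fth1, Ftl1, Il6, Stat3, Bmp6, Cd163 and, for Slc40a1, Hamp and Lcn2, the 3 nearest patterns. Il6ra, Socs3, Slc39a8, Smad5 and the other list genes of the closing section were chosen after their values were seen. Replicates are numbered as in the titles. A total of 25 alternative settings was run: each array left out, a filter on genes with a mean under 6, probe sets averaged per gene, every probe set, trend and robust eBayes, array weights, repeated quantile normalisation, median centring, 2 groups alone, a replicate block, a threshold of 0.01, no arrays with pancreas transcripts and, added after the data were seen, subsets of the untreated arrays.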

Additional observations from a re-analysis of the deposited data

Results flagged for a closer look

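Each of the 10 genes was checked in each of the 3 groups for 1 liver far from the other 3 (Dixon's test, 30 checks), and chance alone flags about 1 in 20 such groups. Hamp in untreated replicate 4 read 13.52 against 13.11 to 13.16 in the other untreated livers, a gap of 0.88 of the group's range. The same liver had the highest untreated Slc40a1, Hmox1, Tfr2 and Cp values and the highest mean of Kupffer cell markers, and the part of these in its Hamp value was not tested. Steap4 in WT LPS replicate 4 read 13.45 against 13.39 in the other 3, a gap of 0.933 of a range of 1.05-fold.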

How the results depend on the processing

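In WT livers after LPS, Slc40a1, Lcn2, Steap4, Hp and Hmox1 kept their direction and call under all 25 settings, and Hpx under 6. The number of the 10 genes called stayed within 5 to 8 there, within 6 to 8 for S534A LPS against untreated livers, and at 0 between the genotypes. The share of all genes called moved with the setting too. In WT livers it was 25.0% in the main fit, 16.2% without the arrays with pancreas transcripts and 28.3% with array weights. For S534A LPS against untreated livers it was 26.9%, 25.1% and 32.2%, and between the genotypes 0.171%, 0.00502% and 2.39%. Shares under the other settings are not given here. Over the 10 genes 219, 246 and 237 of 250 values in the 3 comparisons (WT response, genotype, S534A against untreated) kept their direction and side of the threshold. Uncalled differences that turned sign were those of Hamp in WT livers (-0.14 to 0.00 with each array left out; 0.01 with only untreated replicates 1 and 3), Hamp in S534A LPS against untreated livers (-0.09 to 0.05 with each array left out; 0.03 with array weights; 0.06 with only untreated replicates 1 and 3) and Slc40a1 between the genotypes (-0.15 to 0.18 with each array left out; -0.07 with array weights; -0.23 without the arrays with pancreas transcripts); the cause was not tested. The 36 other iron and heme genes called in WT livers became 22 without the arrays with pancreas transcripts, a fit on fewer arrays. Between the genotypes their count of 0 became 5 with array weights (Bmpr1a, Smad1, Smad5, Neo1 and Slc25a28, all higher in S534A) and 1 (Smad5) with only untreated replicates 1 and 3. With the replicate number as a block Hpx lost its call in both comparisons with untreated livers. The deviations of same-numbered arrays from their group means correlated at -0.27 to 0.21, and no array correlated best with its own number, so the numbers were not treated as pairs. The number of arrays limits all values, and differences at the brightest probe sets may be understated.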

Other observations

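Other genes of the hepcidin and heme lists, named after their values were seen, also changed in WT livers after LPS. Socs3, the feedback inhibitor of STAT3 signalling, rose 2.95-fold (log2 difference 1.56 ± 0.39; limma adjusted p = 0.0106), with untreated replicates 2 and 4 (8.46 and 8.95) above 1 and 3 (7.20 and 7.38), and it did not pass without the 3 arrays with pancreas transcripts (adjusted p = 0.122). Over the alternative settings its difference ranged from 0.85 to 2.27. Fgl1, a secreted hepatocyte protein that binds BMP ligands, rose 1.64-fold (0.72 ± 0.12; adjusted p = 0.000569), the receptor gene Bmpr2 by 0.42 ± 0.09 and Smad1 by 0.38 ± 0.07. Tmprss6, the protease that cleaves hemojuvelin, fell by 0.22 ± 0.06 (adjusted p = 0.0121). Without the 3 arrays with pancreas transcripts it differed by -0.23 (adjusted p = 0.0693). The heme and folate transporter gene Slc46a1 fell by 0.41 ± 0.07 and the porphyrin transporter gene Abcb6 by 0.49 ± 0.08. The mean of 5 monocyte markers was 5.61 to 5.77 in untreated, 6.49 to 7.04 in WT LPS and 6.76 to 6.95 in S534A LPS livers.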
